A study of Rattus norvegicus with 90 samples.

Results

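RNA of rat primary cells exposed to thioacetamide-S-oxide was counted over 25095 intervals of the genome beside 40071 annotated transcripts, and 200 of those intervals are described here. An interval is a stretch named only by its chromosome, start and end on Rnor_6.0, the rat build used by the authors. Intervals on the Y chromosome were set aside, and 4057 of the others had a mean of at least 0.5 CPM (estimated counts per 1000000 counts on annotated transcripts) in vehicle-exposed cells of all 3 cell types at 9 h. For each of these 4057, the 9 h change was the log2 ratio of mean CPM in High against Vehicle, with 0.1 CPM added to both, averaged over the cell types with equal weight. The 100 highest averages are called the raised intervals and the 100 lowest the lowered intervals. The members were thus chosen by the 9 h Vehicle and High levels, and every 9 h value below is a description with no test. The 24 h libraries took no part in the choice.

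The cells were Sprague-Dawley rat hepatocytes and renal tube epithelial cells, bought as cryopreserved stocks and cultured before exposure, and cardiomyocytes, whose source is not given in the sources used here. Each cell type received Vehicle (the culture medium for hepatocytes and renal cells), a Low or a High concentration of thioacetamide-S-oxide for 9 or 24 h, with 5 libraries in each of the 18 groups. The Low and High concentrations were 0.025 and 0.125 mM for hepatocytes, 0.125 and 0.5 mM for renal cells, and 0.5 and 1.5 mM for cardiomyocytes, so the same dose name stands for different concentrations in different cells. The labels do not say whether libraries of a group came from separate donors or cultures, and the p-values measure only the spread between these libraries, which may be technical.

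Thioacetamide is a classical liver toxicant that acts only after oxidation, and thioacetamide-S-oxide is the first product of that oxidation. RNA from outside annotated genes is known to include unannotated genes, RNA from enhancers and RNA that runs on past the end of a gene, the last of which can increase when cells are stressed. A table of counts over intervals does not separate these kinds, and which of them each interval carries was not analysed here. The libraries were enriched for polyadenylated RNA, which favours finished transcripts over short-lived ones.

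The libraries held 2993135 to 61897142 estimated counts (median 27860605). The library MS-183, labelled as Vehicle hepatocytes after 24 h, stood far apart: intervals took 91.7% of its counts, against 4.69 to 15.9% in the other 89 libraries, and its transcripts only 249303 counts. The 15.9% is that of MS-181, another Vehicle hepatocyte library at 24 h, and the next highest share was 11.04%. MS-181 was kept, and without it High against Vehicle in hepatocytes called 17 raised intervals higher and 26 lower, and 8 lowered intervals lower and 24 higher, where 12.2% of all targets were called higher and 13.1% lower in the same fit. Cell labels were checked with transcripts that had at least 20 CPM in the 9 h Vehicle cells of a single type and under 0.5 CPM in the others. The 211 hepatocyte transcripts summed to 8477 to 16588 CPM in the other 14 hepatocyte libraries at 24 h, to 11.8 to 37.7 CPM in renal cells and to 8.92 to 43.3 CPM in cardiomyocytes. In MS-183 they summed to 3382 CPM, beside 1018 CPM of renal and 896 CPM of cardiomyocyte transcripts. MS-183 was left out of the 24 h tests, and the hepatocyte counts against Vehicle are given below without it and with it put back.

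Each list of 100 covered 21 chromosomes. The median length was 20000 bases for raised and 17948 bases for lowered intervals, against 15100 bases for the 4057 from which they came, and 51 raised and 40 lowered intervals had exactly 20000 bases, the longest length in the table, as had 38.03% of the 4057 and 55.5% of all 25095 intervals. Per kilobase, the median level in 9 h Vehicle cells was 0.120 CPM for raised intervals, 0.510 CPM for lowered intervals and 0.236 CPM over the 4057. Chromosome 10 held 15% of the raised intervals and 9.12% of the 4057, and chromosome 4 held 11% of the lowered intervals and 5.99% of the 4057. Estimated counts came out whole, within 0.001, in all 90 libraries for 4 raised and 4 lowered intervals, as for 5.32% of the 4057 and 4.25% of all intervals. In no library were they whole for 60 raised and 46 lowered ones, which was not counted over the 4057. A count that is not whole means that Kallisto divided reads between this and other targets, so most members share some of their reads with sequence elsewhere.

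At 9 h the raised intervals had changes averaged over the cell types from 0.80 to 2.47 on the log2 scale, with a median of 0.96, against a median of 0.04 over the 4057. The change was positive in all 3 cell types for 85 of them and past 2-fold in all 3 for only 3. The median change was 0.81 in hepatocytes, 1.30 in renal cells and 0.70 in cardiomyocytes, and the largest of the 3 changes was in renal cells for 54 intervals, in hepatocytes for 28 and in cardiomyocytes for 18. Among those with mixed signs, 14 were lower in High than in Vehicle hepatocytes and 1 was lower in renal cells. The Low mean lay between the Vehicle and High means for 82 raised intervals in hepatocytes, 57 in renal cells and 55 in cardiomyocytes. Members were chosen for wide gaps between Vehicle and High, which makes a Low mean between them more likely. The same was not counted over the 4057, so no dose order is read from it.

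The lowered intervals had averages from -0.62 to -1.79 at 9 h, with a median of -0.79. The change was negative in all 3 cell types for 79 of them, and in none did it pass 2-fold in all 3. The median change was -0.95 in hepatocytes, -0.87 in renal cells and -0.40 in cardiomyocytes. Hepatocytes had the largest change for 49 of these intervals, renal cells for 41 and cardiomyocytes for 10. At the edges of the choice the averages ran on without a step. They were 0.803 and 0.798 for the last 2 raised intervals and 0.797 and 0.796 for the next 2, and -0.618 and -0.616 for the last 2 lowered intervals and -0.611 for each of the next 2.

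**Figure D1:**
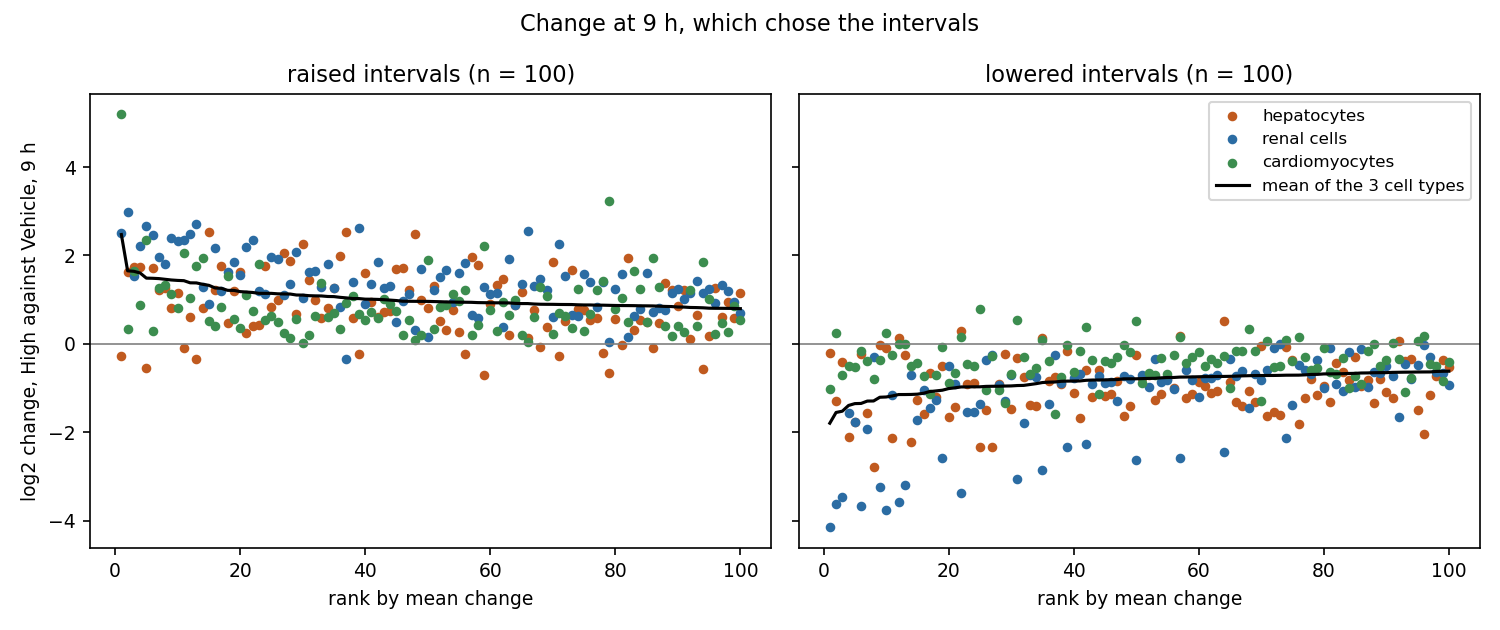
For each of the 200 intervals, ordered by rank, points give the log2 change in mean CPM at 9 h, High against Vehicle, in hepatocytes, renal cells and cardiomyocytes, and the line gives their mean, with raised intervals at left and lowered intervals at right. Among the lowered intervals the lowest points, down to -4.14, are renal cells, and all values chose the members and are a description only.

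The 24 h libraries ask whether the same intervals still differed after the longer exposure. An interval counts as called where edgeR's quasi-likelihood test gave a Benjamini-Hochberg adjusted p of at most 0.05 over all targets and the fold was at least 1.5. In renal cells the 9 h direction was the usual one at 24 h. Of the 100 raised intervals, 88 were called higher and 1 lower in High than in Vehicle, with a median log2 change of 1.45, against 15.7% of all 25025 tested targets called higher and 13.3% called lower. Of the 100 lowered intervals, 62 were called lower and 4 higher, with a median of -0.78. Among the 4057, those that are not members had a median of 0.11, with 17.5% called higher and 7.95% lower. High against Low in renal cells gave 61 raised intervals called higher (9.22% of all targets) and 49 lowered intervals called lower (9.79% of all targets). Without the Low library MS-145, described below, the first of these counts was 84. The share of all targets called in that fit was not counted, so the 84 has no background beside it.

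At the Low concentration renal cells changed little at 24 h. Against Vehicle, 0.0326% of all targets were called higher and 0.00407% lower, and the called members were 1 raised interval and 0 lowered ones by edgeR, while 21 raised and 12 lowered intervals had an unadjusted p under 0.05, as did 6.39% of all targets. DESeq2 called 3 raised intervals higher and 2 lowered intervals lower in the same comparison, the same counts that edgeR gave without the Low library MS-145. Without MS-136, MS-138, MS-139, MS-140, MS-143 or MS-144 edgeR called 0 raised intervals. For DESeq2 and for the fits with a library left out, the share of all targets called was not counted. The interval that edgeR called was chr16:19309343-19323015, described below, which rose by 1.27 ± 0.14 on the log2 scale (SE, adjusted p = 0.0148 by edgeR).

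Cardiomyocytes gave fewer calls, split between directions for the lowered intervals, and the filter on low counts left 95 to 99 raised and 98 to 100 lowered intervals for their tests. In High against Vehicle, 21 raised intervals were called higher, where 5.53% of all targets were called higher and 5.75% lower, and 3.4% and 2.08% of the 4057 intervals that are not members. The raised median was 0.27. Without the Vehicle or High libraries in turn the count of raised intervals called higher ran from 16 to 26, and it was 11 with all 24 h cardiomyocyte groups in 1 fit. Of the lowered intervals 18 were called lower and 19 higher, with a median of -0.07. High against Low gave 4 raised intervals called higher (1.75% of all targets) and 0 lower, while of the lowered intervals 13 were called higher and 6 lower (2.53% of all targets). Without the Low library MS-172 the 4 raised calls were 13 and the 13 lowered intervals called higher were 20, and the 6 lowered intervals called lower were 3 without the High library MS-180. DESeq2 called 7 raised intervals higher and 12 lowered intervals lower. In Low against Vehicle edgeR called no target at all (0.0% in either direction), 24 raised and 12 lowered intervals had an unadjusted p under 0.05, as did 11.5% of all targets, and DESeq2 called 1 raised interval. Without the Low library MS-174 edgeR called 2 raised intervals higher and 1 lowered interval lower. All shares given for cardiomyocytes here are those of the main fits. None was counted for DESeq2, the fit of all 24 h groups or the fits with a library left out.

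Over the 3 cell types, 2 raised intervals were called higher in High than in Vehicle at 24 h in all 3, 32 in 2, 60 in 1 and 6 in none. Of the 3857 intervals among the 4057 that are not members, 0.13% were called higher in all 3 cell types, 3.37% in 2, 27.3% in 1 and 69.2% in none. The count for renal cells alone, with no call in the others, was 37 raised intervals (11.4% of the 3857), and 20 were called higher in both renal cells and cardiomyocytes (1.17%). For the lowered intervals, 0 were called lower in all 3, 20 in 2, 48 in 1 and 32 in none, against 0.0259%, 1.01%, 18.8% and 80.2% of the 3857. Calls against the 9 h direction in at least 1 cell type were made for 27 raised intervals, where 19.8% of the 3857 were called lower in at least 1, and for 45 lowered intervals, where 30.8% were called higher in at least 1. These counts leave out MS-183. With it put back, 0 raised intervals were called higher in all 3 cell types, 20 in 2 (1.17% of the 3857), 70 in 1 (18.7%) and 10 in none (80.1%), with 68 in renal cells alone (16.1%). For the lowered intervals 0 were then called lower in all 3, 14 in 2 (0.519%), 52 in 1 (9.2%) and 34 in none (90.3%). Calls against the 9 h direction were then made for 1 raised interval, where 9.72% of the 3857 were called lower in at least 1 cell type, and for 23 lowered intervals, where 19.9% were called higher in at least 1.

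**Figure D2:**
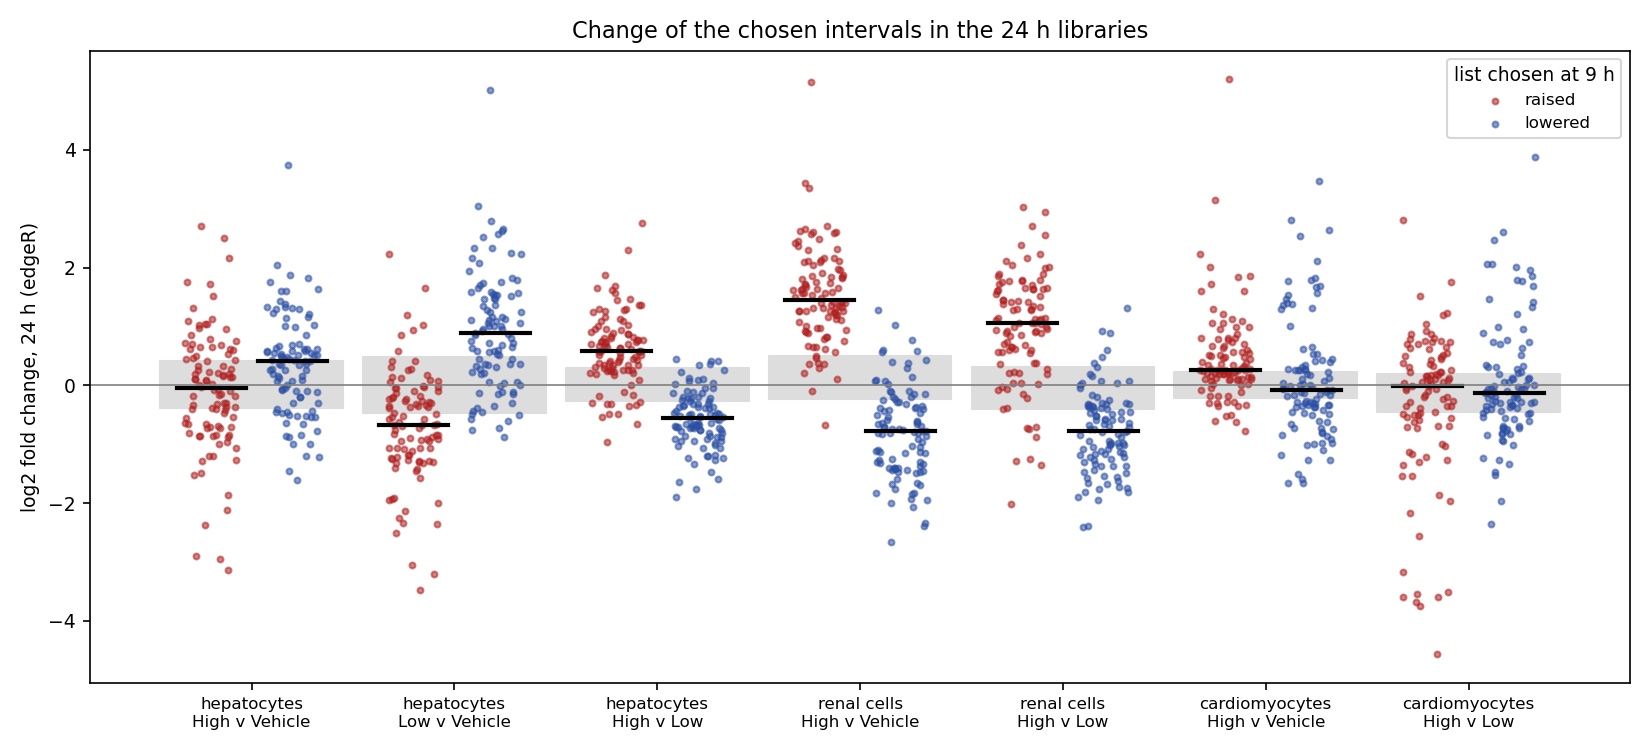
Points are the edgeR log2 fold changes of the raised and lowered intervals at 24 h in 7 comparisons, black bars their medians, and grey bands the lower to upper quartile of the 4057 intervals that are not members. The raised median is above the lowered one in renal cells (1.45 against -0.78 for High against Vehicle), in cardiomyocytes (0.27 against -0.07 for High against Vehicle) and in hepatocytes High against Low (0.59 against -0.55), and below it in hepatocytes High against Vehicle (-0.04 against 0.41) and Low against Vehicle (-0.67 against 0.89).

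The interval with the highest 9 h average, chr8:100191733-100211732, was low in Vehicle cardiomyocytes and renal cells and rose in both under High exposure at 24 h. In cardiomyocytes at 9 h the 5 Vehicle libraries had 3.56, 2.68, 3.43, 2.28 and 3.25 CPM, and the 5 High libraries had 87.3, 101.8, 118.7, 139.8 and 127.5 CPM. At 24 h the Vehicle libraries had 2.18, 1.47, 1.55, 2.61 and 2.73 CPM and the High libraries 64.3, 68.1, 91.2, 97.9 and 78.3 CPM. At 24 h the groups did not overlap, and the change was 5.20 ± 0.19 on the log2 scale (SE, adjusted p = 7.48e-09 by edgeR). The gap at 9 h was part of what chose this interval. In renal cells at 24 h it went from 1.23, 1.04, 1.47, 1.52 and 1.08 CPM in Vehicle to 44.6, 55.4, 45.4, 47.3 and 43.9 CPM in High. That is a 37.3-fold difference of means, fitted as 5.15 ± 0.12 (SE, adjusted p = 2.51e-10 by edgeR), where the 9 h means had differed 5.88-fold. The Low cardiomyocytes at 24 h were uneven, with 21.9, 64.2, 21.3, 1.65 and 21.4 CPM.

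Hepatocytes carried RNA of the same interval without exposure. At 9 h it had 58.5 to 75.8 CPM in Vehicle and 46.1 to 67.6 CPM in High hepatocytes, overlapping ranges. At 24 h the 4 Vehicle libraries other than MS-183 had 36.4, 35.1, 38.2 and 38.7 CPM, MS-183 had 394 CPM, and the High libraries had 73.6, 79.1, 74.2, 71.1 and 113.7 CPM. Without MS-183 the change was 1.13 ± 0.15 (SE, adjusted p = 0.000182 by edgeR), and the difference from the change in renal cells was -3.996 and from that in cardiomyocytes -4.02 on the log2 scale. With MS-183 put back the change was 0.36 ± 0.52 (SE, adjusted p = 0.693 by edgeR), and the differences were -5.12 and -5.18.

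The interval chr16:19309343-19323015, ranked 5 among the raised intervals, followed dose in renal cells. At 24 h its renal levels were 10.1, 12.3, 10.4, 9.60 and 11.5 CPM in Vehicle, 23.9, 20.9, 24.03, 27.5 and 22.2 CPM in Low, and 68.5, 72.7, 64.8, 71.4 and 60.9 CPM in High. The 3 groups did not overlap, and High against Vehicle was 2.60 ± 0.09 (SE, adjusted p = 3.74e-09 by edgeR). Cardiomyocytes rose from 1.38 to 2.49 CPM in Vehicle to 5.05 to 8.68 CPM in High, a change of 1.85 ± 0.20 (SE, adjusted p = 3.4e-05 by edgeR). Hepatocytes went the other way, from 22.1, 29.8, 20.8 and 22.0 CPM in 4 Vehicle libraries (909 CPM in MS-183) to 7.56 to 9.95 CPM in High, a change of -1.49 ± 0.12 (SE, adjusted p = 4.61e-06 by edgeR), and were already lower at 9 h. With MS-183 put back the hepatocyte change was -3.54 ± 0.99 (SE, adjusted p = 0.0751 by edgeR).

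The interval chr7:2373120-2393119 passed 2-fold in all 3 cell types at 9 h, as did chr13:74578020-74598019 and chr1:140594246-140601290, and its hepatocyte levels crossed over at 24 h. Renal cells at 24 h had 1.22 to 1.65 CPM in Vehicle and 14.5 to 18.6 CPM in High, a change of 3.44 ± 0.12 (SE, adjusted p = 2.5e-09 by edgeR). Cardiomyocytes had 0.286 to 0.844 CPM in Vehicle and 1.49 to 3.80 CPM in High, a change of 2.23 ± 0.32 (SE, adjusted p = 0.000324 by edgeR). In hepatocytes the 9 h levels were 8.46 to 11.6 CPM in Vehicle, 11.5 to 14.6 CPM in Low and 32.9 to 37.5 CPM in High, whereas at 24 h they were 32.9, 48.7, 41.7 and 40.6 CPM in 4 Vehicle libraries, 6.95 to 11.5 CPM in Low and 24.5 to 40.0 CPM in High. The 24 h Vehicle and High ranges overlap, and Low lay below both. MS-183 had 507.9 CPM, and with it put back the change was -1.30 (adjusted p = 0.131 by edgeR) for High and -3.27 (adjusted p = 0.0275 by edgeR) for Low against Vehicle.

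The interval chr1:140594246-140601290 was higher in High than in Vehicle in renal cells and cardiomyocytes, while the Low mean did not lie between theirs. In renal cells at 24 h it went from 11.2, 12.8, 10.96, 9.94 and 9.69 CPM in Vehicle to 48.1, 49.2, 51.9, 47.3 and 56.9 CPM in High (2.17 ± 0.08 SE, adjusted p = 3.71e-09 by edgeR), while Low had 8.39 to 10.9 CPM. Cardiomyocytes at 24 h went from 5.88 to 7.72 CPM to 11.1 to 14.4 CPM. Hepatocytes at 24 h had 170.4, 193.7, 163.2 and 165.04 CPM in 4 Vehicle libraries, 66.01 to 85.7 CPM in Low and 111.3 ± 4.91 CPM in High (mean ± SD, n = 5), with no overlap between the 3 groups and Vehicle highest. MS-183 had 81.6 CPM.

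**Figure D3:**
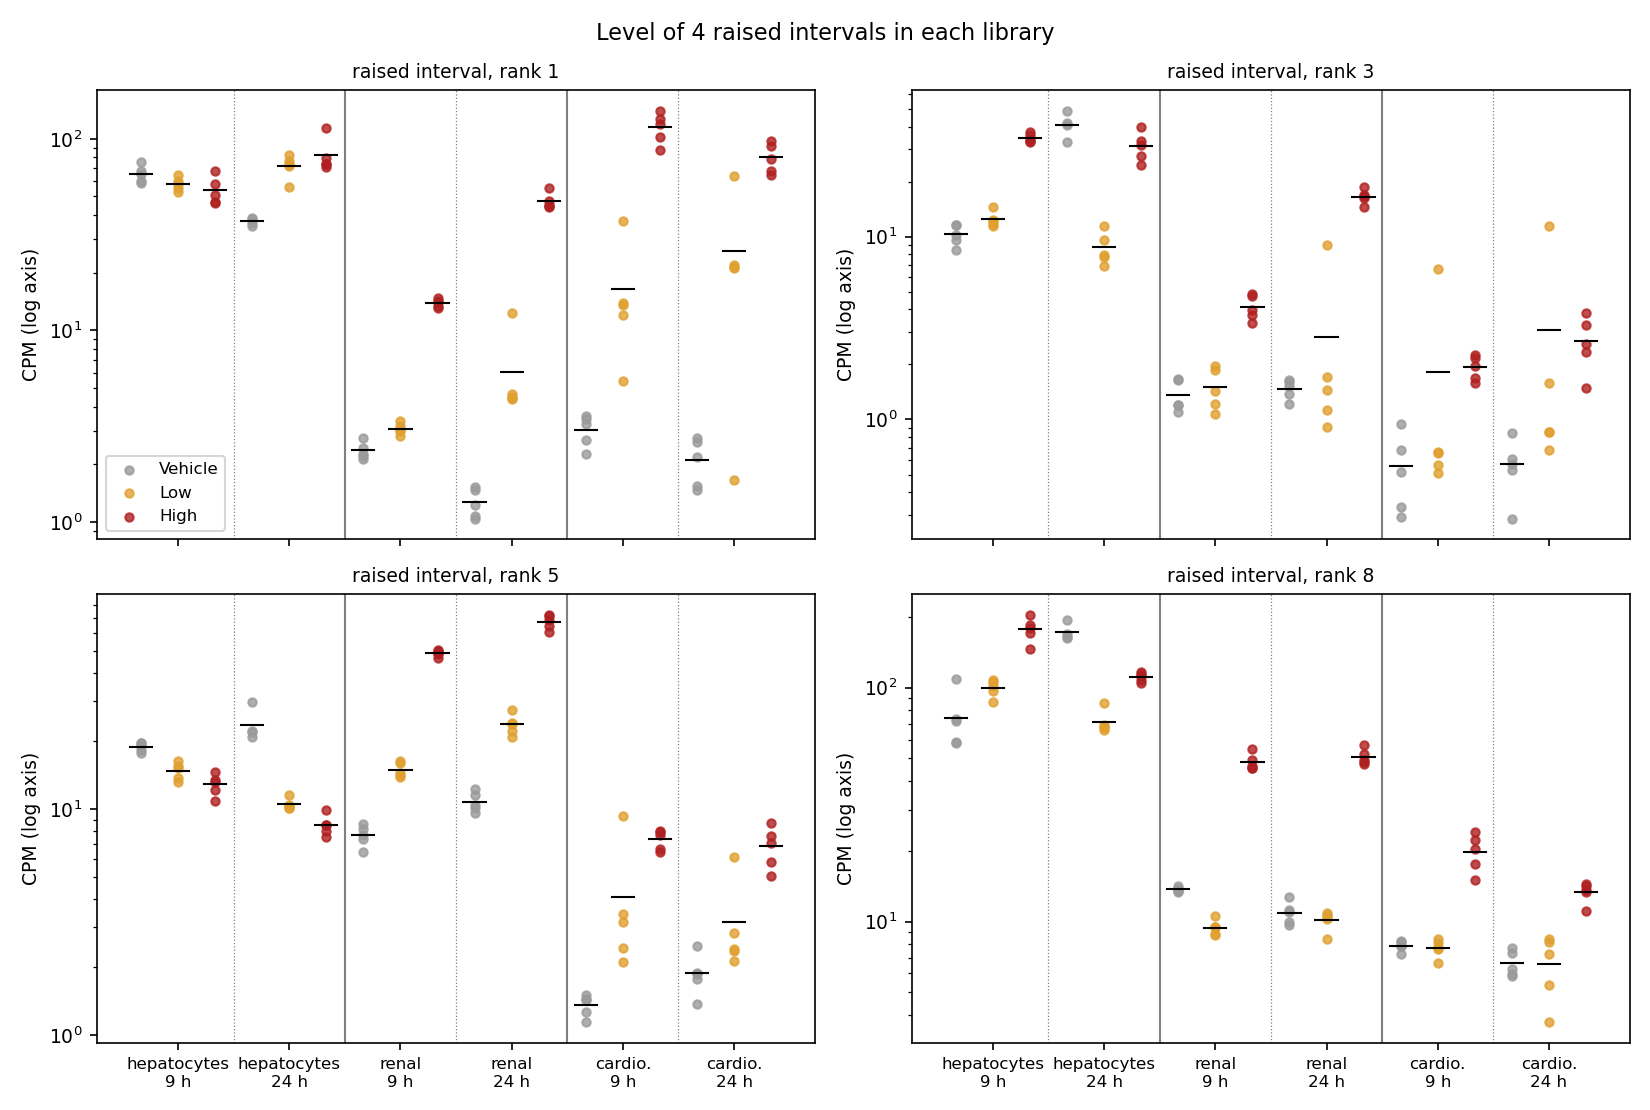
CPM on a log axis in every library of the 18 groups for the raised intervals ranked 1, 3, 5 and 8 by their 9 h average, with black bars at the group means and MS-183 left out. High libraries are above Vehicle libraries in renal cells and cardiomyocytes at both times. In hepatocytes the order of the group means differs between 9 and 24 h for ranks 1, 3 and 8, and for rank 5 it is Vehicle, Low, High from highest to lowest at both times.

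Another 4 raised intervals, 2 named by their 24 h tests and 2 by their level per kilobase in 9 h Vehicle cells, differed in the cells that carried the change. The short interval chr16:71033291-71035703, whose counts were whole in all 90 libraries, moved in cardiomyocytes, from 1.73 to 2.19 CPM in Vehicle to 15.2 to 23.2 CPM in High at 24 h (3.15 ± 0.13 SE, adjusted p = 2.31e-08 by edgeR). Its renal levels were 0.964 to 1.58 CPM in Vehicle and 0.990 to 1.88 CPM in High, and in hepatocytes it fell by 0.88 on the log2 scale without MS-183 (-1.41, adjusted p = 0.0751 by edgeR, with it). The interval chr2:225848376-225854129 was called higher in renal cells (1.27) and cardiomyocytes (1.20) and lower in hepatocytes (-0.71) on the log2 scale, the last without MS-183 (-0.53, adjusted p = 0.291 by edgeR, with it). The interval chr10:109803240-109805658 had 42.9 to 59.0 CPM in Vehicle and 74.4 to 108.7 CPM in High renal cells at 24 h, and 30.04 to 45.2 CPM against 66.2 to 74.1 CPM in cardiomyocytes. The interval chr17:49655681-49675680 was called higher in all 3 cell types, by 0.66 in hepatocytes (adjusted p = 0.0416 by edgeR), 2.09 in renal cells and 1.12 in cardiomyocytes, but with MS-183 put back its hepatocyte value was -3.67.

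The lowered intervals with the lowest averages had large differences in only some groups. The interval chr4:117531981-117550439 had 163.3, 162.5, 160.6, 166.5 and 178.8 CPM in Vehicle renal cells at 9 h and 10.5, 8.82, 9.02, 9.50 and 8.81 CPM in High ones. By 24 h the Vehicle renal cells had 17.8, 17.8, 18.3, 16.9 and 17.4 CPM, and the High ones 7.13, 8.45, 8.07, 10.03 and 8.25 CPM, a change of -1.13 ± 0.09 (SE, adjusted p = 1.63e-06 by edgeR). The Vehicle level at 24 h was far below that at 9 h, and the groups still did not overlap. In cardiomyocytes the 9 h Vehicle libraries had 326, 327, 280, 323 and 292 CPM and the High ones 140.97 to 166.6 CPM. At 24 h the order was the opposite, with 35.2, 37.1, 27.4, 40.7 and 41.9 CPM in Vehicle and 410, 445, 373, 380 and 427 CPM in High, a change of 3.47 ± 0.11 (SE, adjusted p = 2.93e-09 by edgeR).

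A group of 12 lowered intervals, picked after their values were seen, shared that shape: all 5 Vehicle renal libraries at 9 h were more than 2-fold above each of the other 25 renal libraries. Only 13 of the 4057 intervals did so, and the 12 have ranks 1, 2, 3, 6, 9, 10, 12, 13, 19, 22, 31 and 35 in the lowered order. Their mean in Vehicle renal cells was 3.18 to 20.9 times higher at 9 h than at 24 h. At 24 h 11 were called lower in High than in Vehicle renal cells (13.3% of all targets), and chr5:120306399-120324614 was called higher (0.60, adjusted p = 0.0463 by edgeR). All 12 were called higher in High than in Vehicle cardiomyocytes at 24 h (5.53% of all targets), where the means differed by 2.01 to 11.2 times. The interval chr4:85345627-85365626, with 374 to 418 CPM in Vehicle renal cells at 9 h and 80.6 to 95.97 CPM at 24 h, was the most abundant of the 12 in the 9 h Vehicle renal cells. Since the 9 h Vehicle renal libraries entered the rule, those levels helped to choose these 12, and what moved them was not tested.

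The interval chr2:234483650-234490820 differed from these by moving the same way in renal cells and cardiomyocytes. At 24 h renal cells had 13.3, 9.14, 11.5, 12.7 and 10.96 CPM in Vehicle and 3.73, 3.81, 3.54, 3.65 and 4.05 CPM in High (-1.67 ± 0.10 SE, adjusted p = 1.83e-07 by edgeR). Cardiomyocytes had 76.3, 71.6, 61.4, 75.7 and 76.5 CPM in Vehicle and 25.9, 27.1, 20.9, 18.6 and 22.8 CPM in High (-1.66 ± 0.11 SE, adjusted p = 6.35e-07 by edgeR). Neither pair of groups overlapped. In hepatocytes the 9 h order was Vehicle (4.36 to 4.80 CPM), Low (1.96 to 3.53 CPM) and High (0.866 to 1.13 CPM), and at 24 h it was Low (3.79 to 5.19 CPM), High (1.78 to 2.07 CPM) and Vehicle (0.845, 0.744, 1.06 and 0.430 CPM), with 44.995 CPM in MS-183. Without MS-183 the hepatocyte change was 1.30 (adjusted p = 0.00193 by edgeR), and with it -0.58 (adjusted p = 0.771 by edgeR).

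**Figure D4:**
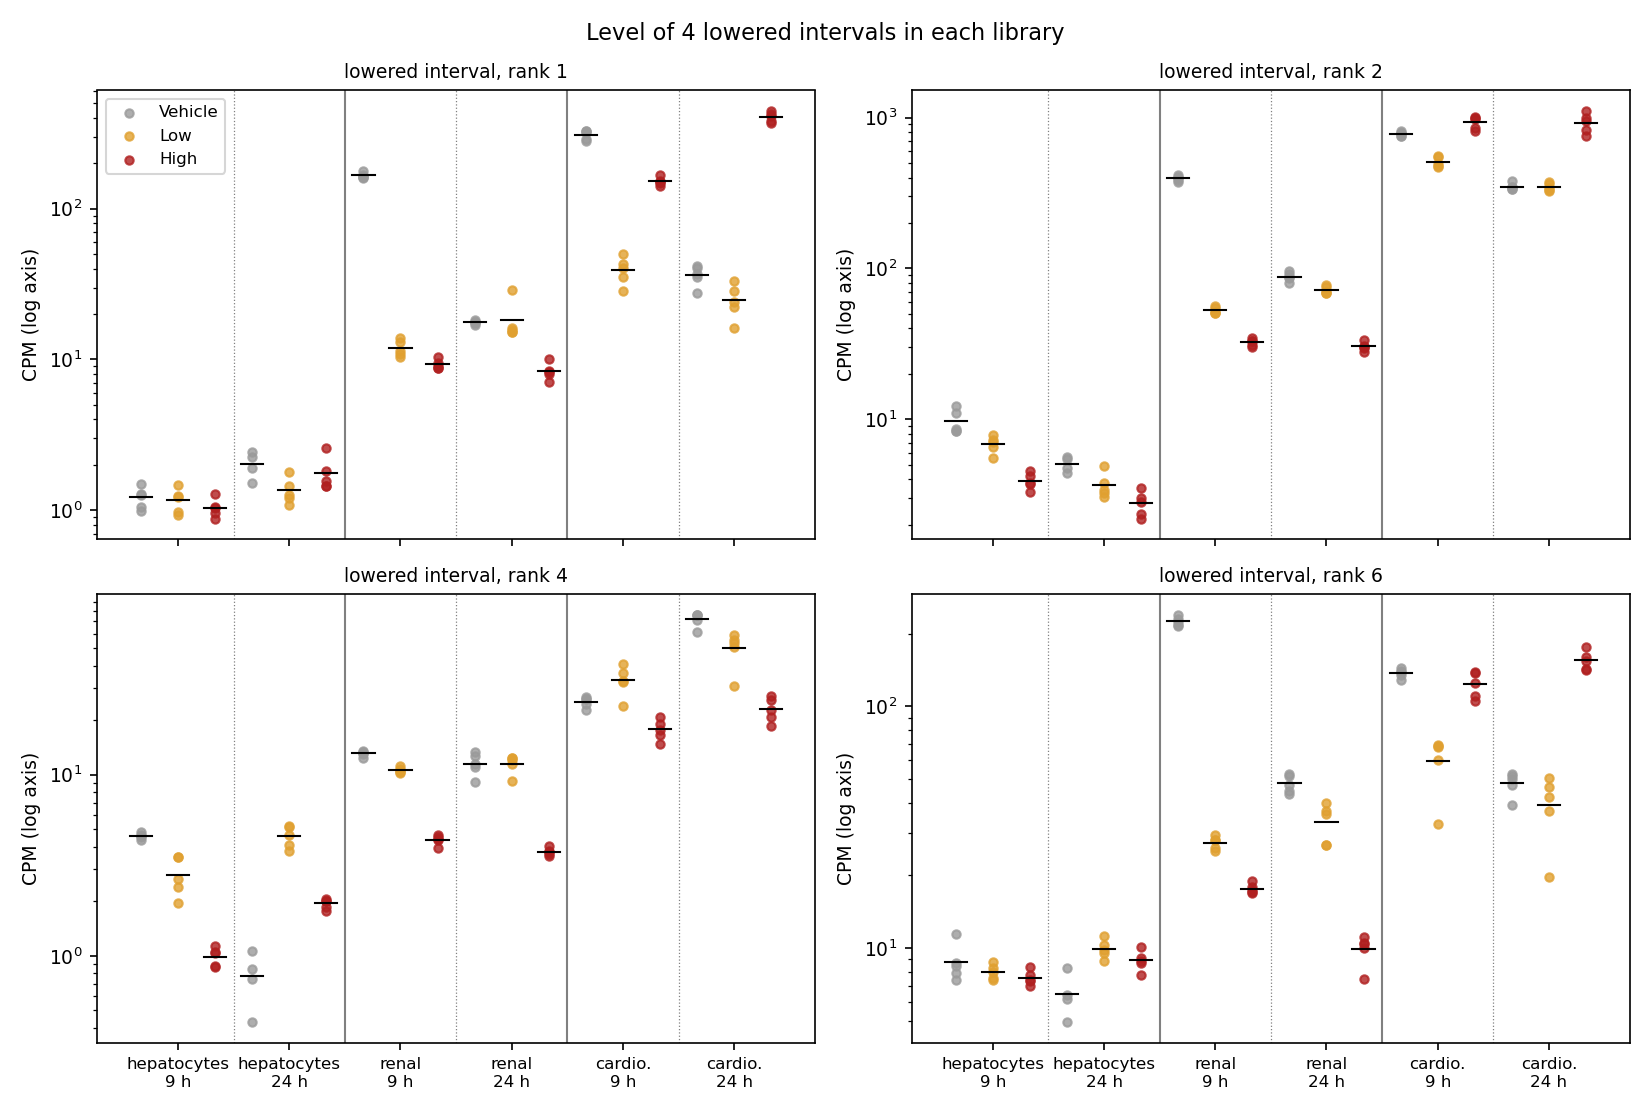
CPM on a log axis in every library of the 18 groups for the lowered intervals ranked 1, 2, 4 and 6, with black bars at the group means and MS-183 left out. In the intervals ranked 1, 2 and 6 the Vehicle renal cells at 9 h are above all other renal libraries and the High cardiomyocytes at 24 h are above Vehicle, and the interval ranked 4 is lower in High in both cell types at both times.

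The interval chr10:70637833-70639361 had the largest change of the lowered intervals in High against Vehicle hepatocytes at 24 h. The 4 Vehicle libraries had 0.567, 0.583, 0.391 and 0.491 CPM, MS-183 had 0 CPM, and the High libraries had 5.25, 7.63, 6.97, 6.91 and 7.27 CPM, a change of 3.75 ± 0.20 (SE, adjusted p = 1.45e-07 by edgeR) without MS-183 and 3.81 ± 0.34 (SE, adjusted p = 0.00102 by edgeR) with it. At 9 h the Vehicle hepatocytes had 6.59 to 12.1 CPM. The level fell in Vehicle hepatocytes between the times, while Low reached 14.2 to 18.3 CPM at 24 h. Renal cells (-2.06) and cardiomyocytes (-1.28) were called lower.

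In hepatocytes, too, the 9 h direction was often not the 24 h direction. Without MS-183, High against Vehicle called 21 raised intervals higher and 26 lower, beside 13.5% of all targets higher and 12.7% lower, with a median of -0.04. Of the 97 lowered intervals tested, 8 were called lower and 25 higher, with a median of 0.41. In Low against Vehicle the calls ran mostly against the 9 h direction: 45 raised intervals were called lower and 6 higher, and 54 lowered intervals were called higher and 2 lower, where 17.6% of all targets were called higher and 17.4% lower. The 2 lowered intervals called lower became 5 without MS-184 and 1 without MS-181, MS-182, MS-185, MS-111 or MS-115. No share of all targets was counted for those fits. In the main fit the medians were -0.67 for raised and 0.89 for lowered intervals, and 0.00 over those of the 4057 that are not members.

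High against Low, which uses no Vehicle library, gave the 9 h direction in hepatocytes. It called 48 raised intervals higher and 2 lower, and 45 of 99 tested lowered intervals lower, where 7.93% of all targets were called higher and 8.13% lower, and 8.18% and 5.61% of the 4057 intervals that are not members. The medians were 0.59 and -0.55. The Low mean lay below both the Vehicle and High means for 71 raised intervals and above both for 77 lowered ones. The same was not counted over the 4057, so these numbers have no background beside them. At 24 h the median of the raised intervals' group means was 2.96 CPM in Vehicle, 2.35 CPM in Low and 3.61 CPM in High, against 1.84, 2.45 and 3.99 CPM at 9 h. For the lowered intervals it was 1.74, 3.99 and 2.41 CPM at 24 h, against 3.77, 2.80 and 1.65 CPM at 9 h.

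The Vehicle hepatocytes themselves moved between the times. Their 24 h levels were above their 9 h levels by a median of 0.75 on the log2 scale for raised intervals, with 32 more than 2-fold higher, and below by a median of -0.79 for lowered intervals, with 44 more than 2-fold lower. The median over the 4057 was 0.04, and in renal cells and cardiomyocytes the same medians were -0.05 and -0.02 for raised and -0.23 and -0.09 for lowered intervals. The rule used the 9 h Vehicle level in all 3 cell types, so these shifts are a description, and the part of the rule in them was not tested. The transcripts that marked hepatocytes also moved, summing to 20361 to 22908 CPM in Vehicle hepatocytes at 9 h and 8477 to 9137 CPM at 24 h, where Low had 13626 to 16588 CPM and High 12916 to 14874 CPM, and their part in the shift was not tested. Without MS-182, High against Vehicle at 24 h called 23 raised intervals higher and 20 lower and 7 lowered intervals lower and 33 higher, where 14.8% of all targets were called higher and 10.7% lower. Without MS-185 these counts were 16, 21, 8 and 23, where 3227 of 27397 targets were called higher and 3004 lower. The 5 Vehicle hepatocyte libraries at 24 h are numbered MS-181 to MS-185 in the labels. The other hepatocyte libraries are numbered MS-91 to MS-105 and MS-111 to MS-120. Whether the 5 were handled apart is not given in the sources used here. A difference in handling and the Vehicle condition at 24 h therefore cannot be told apart. With MS-183 put back, High against Vehicle in hepatocytes called 1 raised interval higher and 1 lowered interval higher, with 0 lowered intervals lower, where 1.57% of all targets were called higher and 0.638% lower. Low against Vehicle then called 2 raised intervals lower and 2 lowered intervals higher, with 0 in the 9 h direction in either list, where 2.74% of all targets were called higher and 1.12% lower.

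A set of 5 raised intervals on different chromosomes rose and fell together from library to library. They were picked after their values were seen. Their deviations from their group means had a Pearson correlation of at least 0.9 with those of chr14:78499415-78519414 over 89 libraries. Only 6 of the 4057 intervals did so, chr14:78499415-78519414 itself included. With that interval as the base, the correlations were 0.998 for chr1:165692329-165712328, 0.995 for chr15:93667896-93678384, 0.948 for chr6:43559324-43579323 and 0.911 for chr19:56176002-56178611. The level of chr1:165692329-165712328 was 0.528 to 0.855 times that of chr14:78499415-78519414 in every one of the 89 libraries, and that of chr15:93667896-93678384 was 0.116 to 0.209 times. The ratios spread more widely for chr6:43559324-43579323, from 0.00626 to 0.0370 times, and for chr19:56176002-56178611, from 0.00394 to 0.0326 times. These points share library, depth and any reads that Kallisto divided between the intervals.

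The 5 intervals were uneven within some groups. The chr14:78499415-78519414 interval had 143.5, 49.8, 224.7, 113.9 and 2795 CPM in the Low renal cells at 24 h, the last in MS-145. It had 6720 CPM in MS-158 among Low cardiomyocytes at 9 h (159.7 to 868 CPM in the other 4) and 7940 CPM in MS-172 among Low cardiomyocytes at 24 h (186.3 to 703 CPM in the other 4). Vehicle hepatocytes at 24 h had 1144, 5062, 222 and 5037 CPM, and 33972 CPM in MS-183. In High renal cells at 24 h it had 934.1, 663.1, 142.9, 694.3 and 461.3 CPM against 114.2, 261.3, 129.7, 83.03 and 192.9 CPM in Vehicle, overlapping ranges with a fitted change of 1.83. All 5 intervals were called higher in High renal cells at 24 h (15.7% of all targets) and, without MS-183, lower in High hepatocytes (12.7% of all targets), and none was called in cardiomyocytes, where 5.53% of all targets were called higher and 5.75% lower.

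The share of the 5 in the sum over all 100 raised intervals varied widely, from 14.6 to 95.9% (median 47.7%) over the 89 libraries, and it was above 50% in 41 of them. In MS-172 the 3 most abundant, chr14:78499415-78519414, chr1:165692329-165712328 and chr15:93667896-93678384, made up 94.5% of it. The other 95 raised intervals were also above their group in the same libraries. They summed to 417 CPM in MS-145 (309 to 339 CPM in the other 4), 536 CPM in MS-158 (261 to 318 CPM) and 680 CPM in MS-172 (221 to 296 CPM). Over all 25095 intervals the median level per kilobase was above the group in these libraries as well, at 0.0221 CPM in MS-145 (0.00702 to 0.00839 CPM in the other 4), 0.0185 CPM in MS-158 (0.00861 to 0.00976 CPM) and 0.0207 CPM in MS-172 (0.00782 to 0.00983 CPM). They were the shallowest of their groups, with 15078809, 17494079 and 11519925 counts against at least 30860544, 40864839 and 19551242 counts in the others. Among the Vehicle hepatocytes at 24 h, MS-182 and MS-185 had medians of 0.0542 and 0.0335 CPM per kilobase and raised sums of 10664 and 10543 CPM, against 0.0180 and 0.0132 CPM and 3249 and 1359 CPM in MS-181 and MS-184. They stayed in the tests. With MS-183 aside, the shallowest library had the highest raised sum in 10 of the 18 groups and the lowest in 2, and the highest median over all intervals in 11 and the lowest in 4. The part of depth in these levels was not tested. Counted without the 5, renal High against Vehicle called 83 raised intervals higher and 1 lower (15.7% and 13.3% of all targets), and hepatocytes called 21 higher and 21 lower (13.5% and 12.7% of all targets).

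**Figure D5:**
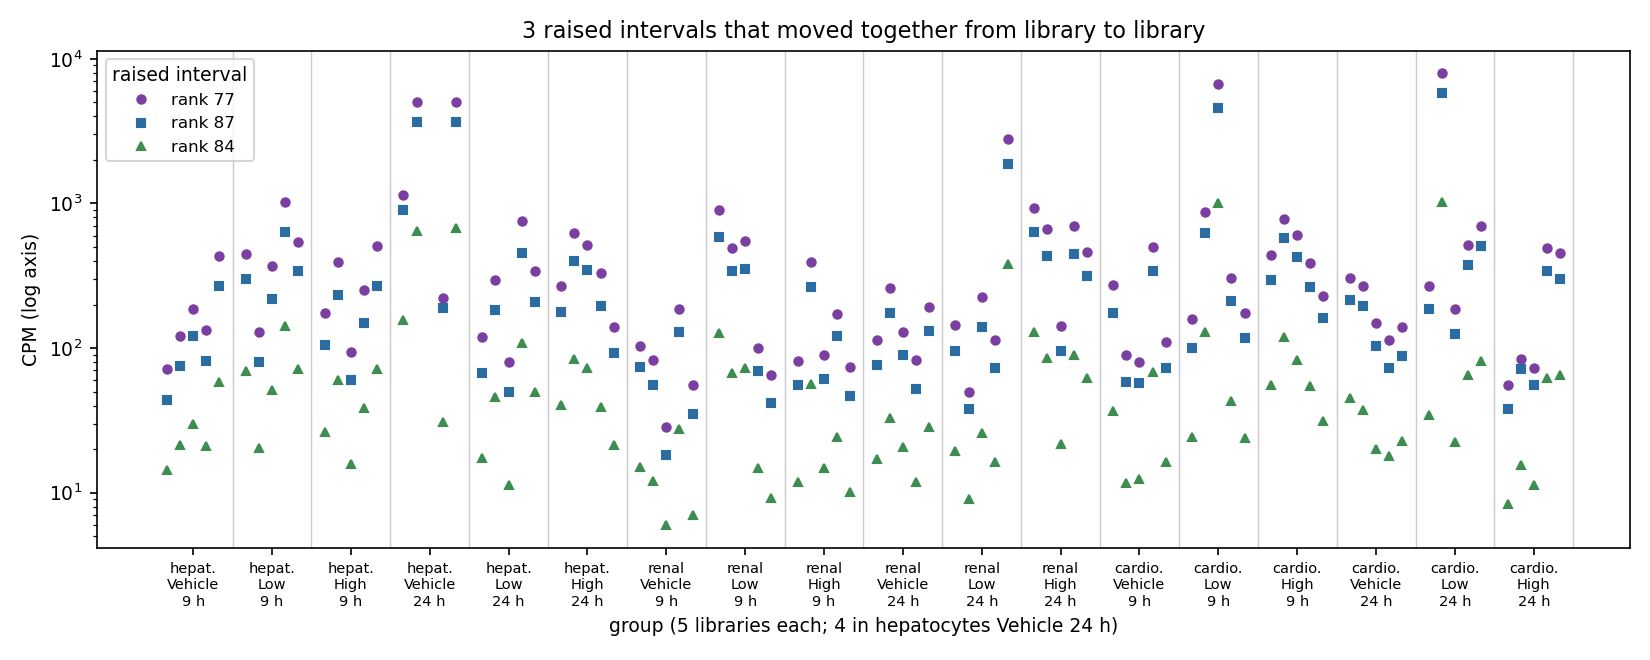
CPM on a log axis in each of 89 libraries, set out by group and with MS-183 left out, for the 3 raised intervals ranked 77, 87 and 84, on chromosomes 14, 1 and 15. The 3 symbols keep nearly the same distances in all libraries and peak in the same ones, at 7940 CPM for rank 77 in a library of Low cardiomyocytes at 24 h.

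In 2 places a pair of members of the same list was within 20 kb. The raised pair chr10:105631709-105645943 and chr10:105648951-105650361, 3007 bases apart, changed by 1.59 and 1.61 on the log2 scale in renal cells at 9 h. At 24 h the pair rose by 1.86 ± 0.22 (SE, adjusted p = 3.3e-05 by edgeR) and 1.41 ± 0.17 (SE, adjusted p = 3.87e-05 by edgeR) in renal cells, and in hepatocytes each fell by 0.85 without MS-183. With MS-183 put back the hepatocyte values were -4.67 ± 1.50 (SE, adjusted p = 0.0751 by edgeR) and -0.63 ± 0.51 (SE, adjusted p = 0.428 by edgeR), and neither was called. The lowered pair chr17:19534315-19537642 and chr17:19538867-19542774, 1224 bases apart, changed by -0.63 and -0.78 in renal cells at 24 h, both called lower. Another of the 4057 intervals lay within 20 kb of 22 raised and 10 lowered members, where 904 (22.3%) of the 4057 had one that near. The nearest had a positive 9 h average for 17 of the 22 and a negative one for 5 of the 10, where over the 904 it was positive for 551 and negative for 353.

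The responses at 24 h differed between the cell types for many members, by edgeR's test of the difference between High-against-Vehicle changes, at unequal concentrations and without MS-183. Between hepatocytes and renal cells, 72 raised intervals had the lower change in hepatocytes (20.4% of all 31676 tested targets) and 4 the higher (15.2%), while 66 lowered intervals had the higher change in hepatocytes and 5 the lower. Between renal cells and cardiomyocytes, 55 raised intervals had the higher change in renal cells (10.3% of all targets) and 2 the lower (9.2%), and 40 lowered intervals had the lower change in renal cells and 5 the higher. Between hepatocytes and cardiomyocytes, 36 raised intervals had the lower change in hepatocytes (11.8% of all targets) and 12 the higher (11.9%), and lowered intervals divided into 27 higher and 21 lower. With MS-183 put back, the hepatocyte to renal counts were 89 lower and 1 higher for raised intervals, and 29 lower and 5 higher for lowered intervals, where 36.5% of all targets were called lower and 7.06% higher, and 60.8% and 1.71% of the 4057 intervals that are not members. The hepatocyte to cardiomyocyte counts were then 72 lower and 1 higher for raised, and 50 lower and 3 higher for lowered intervals, where 30.7% of all targets were called lower and 4.89% higher, and 53.4% and 0.933% of the 4057 intervals that are not members.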

How the data were processed

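Poly-A-enriched, stranded libraries were sequenced as 150-base paired reads, and the authors quantified them with Kallisto 0.42.4 against Rnor_6.0 targets. The deposited tables give an estimated count and TPM per target. Counts were used, and the deposited TPM served only as an alternative way to choose members. The tables hold 65166 targets, of which 23 intervals are on the Y chromosome. How the intervals were drawn is not given in the sources used here. No gene could be matched to an interval or transcript, so neighbouring genes were not analysed here.

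CPM and TMM factors rested on transcript counts. Estimated counts were rounded and tested at 24 h with edgeR 4.0.16 in R 4.3.3 (filterByExpr, TMM, quasi-likelihood test), over all targets that passed the filter, with Benjamini-Hochberg adjustment. A call needed an adjusted p no larger than 0.05 and, on the natural-log scale, a change of 0.41 or more. Comparisons used only the groups compared, and differences between cell types were interaction terms. DESeq2 1.42.0 and limma 3.58.1 were alternatives, with other scalings, filters and left-out libraries. On simulated renal counts (25382 targets), 145 of 200 changed targets were called, 0 in the wrong direction, and 9 unchanged ones were called. The simulation drew each target independently with the same spread for all, and changed only intervals above a minimum count. Some members were far less even and moved together, so these rates need not hold for them. Tables were joined with Python 3.11.15 and pandas 2.3.3.

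The members and lists were chosen with earlier results of these data known. Named intervals were the 8 highest and lowest averages, the most abundant per kilobase, neighbouring members, those called in every cell type or against their 9 h direction, those with the largest differences between cell types, and those at the edges. Others are said to have been picked after their values were seen. Library totals cover counting error only.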

Additional observations from a re-analysis of the deposited data

Results flagged for a closer look

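The summed level of the 100 raised intervals had a library far from the others of its group in 5 of the 18 groups, and that of the 100 lowered intervals in 1. The limit used in these 36 checks flags about 1 in 20 by chance if values are normally distributed. The raised sums were uneven, so that rate need not hold here. The raised sum was 15655 CPM in MS-172 among Low cardiomyocytes at 24 h, 13002 CPM in MS-158 among Low cardiomyocytes at 9 h, 5547 CPM in MS-145 among Low renal cells at 24 h, 1675 CPM in MS-95 among Vehicle hepatocytes at 9 h and 145676 CPM in MS-183 among Vehicle hepatocytes at 24 h. The lowered sum was 33956 CPM in MS-183. Each of these libraries was the shallowest of its group, with 11519925 counts in MS-172 (at least 19551242 in the other 4), 17494079 in MS-158 (at least 40864839), 15078809 in MS-145 (at least 30860544), 15413513 in MS-95 (at least 28975366) and 2993135 in MS-183 (at least 20593560). With MS-183 aside, the shallowest library had the highest raised sum in 10 of the 18 groups. The part of depth or RNA quality in these sums was not tested. MS-183 was outside the comparisons and had 91.7% of its counts on intervals.

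The members with the largest differences between cell types in their 24 h change, High against Vehicle, were found by edgeR's interaction test at unequal concentrations and without MS-183. For hepatocytes minus renal cells, in log2 units, chr10:70637833-70639361 differed by 5.83, chr1:165692329-165712328 by -4.92, chr14:78499415-78519414 by -4.76 and chr15:93667896-93678384 by -4.63. The last 3 are the intervals that rose and fell together, with Vehicle hepatocyte libraries as unlike as 222 and 5062 CPM for chr14:78499415-78519414. For hepatocytes minus cardiomyocytes, chr10:70637833-70639361 differed by 5.06, chr8:100191733-100211732 by -4.02, chr16:71033291-71035703 by -3.99 and chr4:117531981-117550439 by -3.65. With MS-183 put back, the hepatocyte minus renal values were 5.89, -6.31, -5.99 and -6.52 and the hepatocyte minus cardiomyocyte values 5.09, -5.18, -4.82 and -9.37, in the same orders. For renal cells minus cardiomyocytes, chr4:117531981-117550439 differed by -4.57, chr20:46360027-46380026 by -4.27, chr12:6562496-6582495 by -4.00 and chr9:43545865-43565864 by -3.98.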

How the results depend on the processing

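Of the counts in the 9 h direction and of differences between cell types, and of members kept, 27 moved by over 1.5 times under settings other than a left-out library, and with a library left out 18 did and 276 did not. Of the counts against the 9 h direction, 10 moved under the former, 4 of them with MS-183 put back, and 8 under the latter. With a library left out, raised intervals called lower and lowered intervals called higher ranged from 20 to 28 and 22 to 33 for High against Vehicle, 40 to 52 and 46 to 62 for Low against Vehicle, and 1 to 2 and 0 to 0 for High against Low in hepatocytes. In renal cells they were 1 to 1 and 3 to 4 for High against Vehicle and 1 to 1 and 1 to 5 for High against Low, and in cardiomyocytes 0 to 0 and 19 to 20, and 0 to 2 and 10 to 20, with 0 for Low against Vehicle in both. The 8 moves were the 2 in hepatocytes becoming 1 without MS-115, the 2 lowered intervals in renal cells becoming 5 without MS-145 and 1 without MS-144, MS-147 or MS-148, and in cardiomyocytes the 0 becoming 2 without MS-172 and 1 without MS-173 and the 13 becoming 20 without MS-172, each in High against Low. Putting MS-183 back left 1 raised and 0 lowered intervals called in the 9 h direction for High against Vehicle in hepatocytes (21 and 8 without it), and 0 and 0 for Low against Vehicle (6 and 2). The 2 lowered intervals of the latter comparison were 1 with no filter, with TMM over all targets, with limma or with intervals alone, and 4 with all 24 h groups in 1 fit. For Low against Vehicle in renal cells, raised calls were 3 with DESeq2 or 1 fit and 2 with TMM over all targets or limma, and lowered calls were 2 in each of these. In cardiomyocytes, 1 fit gave 11 raised calls for High against Vehicle, and DESeq2 and 1 fit each gave 1 for Low against Vehicle. High against Low gave 7 raised calls with DESeq2 or limma, and 12 lowered calls with DESeq2, 11 with 1 fit and 3 with limma or TMM over all targets. Cause was not tested, except that MS-183 is a library added. Beyond the main fits, shares of all targets called were counted with MS-183 put back. They were also counted for High against Vehicle in hepatocytes without MS-181, MS-182 or MS-185. Under the other settings a move of the members cannot be told from a move over all targets.

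With each library left out in turn, raised and lowered calls in the 9 h direction ranged as follows. For High against Vehicle they were 16 to 23 and 7 to 10 in hepatocytes, 84 to 87 and 56 to 62 in renal cells, and 16 to 26 and 14 to 18 in cardiomyocytes. For Low against Vehicle they were 6 to 8 and 1 to 5, 0 to 3 and 0 to 2, and 0 to 2 and 0 to 1 in the same order of cells. For High against Low they were 43 to 50 and 43 to 49, 51 to 84 and 44 to 56, and 3 to 13 and 3 to 7. The choice of members kept 91 to 98 raised and 93 to 99 lowered intervals. A minimum of 1 CPM kept 43 raised and 67 lowered ones, a pseudocount of 1 CPM 85 and 73, TMM scaling 95 and 98, and the deposited TPM 74 and 74.

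Among named intervals called with or without the changed setting, directions that turned did so mainly with MS-183. Values called under neither are left out here, though some turned too, as that of chr11:15754027-15774026 in High against Vehicle hepatocytes did (1.21 without and -3.925 with MS-183). With MS-183 the log2 values of the called intervals for High against Vehicle were -0.58 (chr2:234483650-234490820), -2.965 (chr18:29543622-29559864) and -3.67 (chr17:49655681-49675680), and for Low against Vehicle -2.79 (chr11:15754027-15774026), -3.44 (chr9:43545865-43565864), -2.60 (chr18:29543622-29559864), -3.48 (chr17:49655681-49675680) and -4.07 (chr18:55531490-55551489). For hepatocytes minus renal cells they were -4.79 (chr4:117531981-117550439), -2.38 (chr4:85345627-85365626), -1.67 (chr15:30528213-30548212), -2.46 (chr11:15754027-15774026), -1.60 (chr9:43545865-43565864), -2.23 (chr18:29543622-29559864), -2.475 (chr2:235328473-235340864), -3.99 (chr17:19534315-19537642), -4.40 (chr20:46360027-46380026), -5.19 (chr12:6562496-6582495) and -3.26 (chr18:55531490-55551489). For hepatocytes minus cardiomyocytes they were -5.96 (chr2:207474457-207494456), -4.88 (chr11:15754027-15774026), -4.03 (chr18:29543622-29559864) and -4.74 (chr18:55531490-55551489). With each library left out, High against Low in renal cells ranged from -1.02 to 2.06 (chr14:78499415-78519414), -1.025 to 2.095 (chr1:165692329-165712328), -1.04 to 2.06 (chr15:93667896-93678384) and -1.565 to 1.47 (chr6:43559324-43579323), positive only without MS-145, and in cardiomyocytes from -0.99 to 1.38 (chr7:2373120-2393119), positive only without MS-172.

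No paired analysis was possible because the library numbers in the labels are not shared between groups. Hepatocyte comparisons with Vehicle at 24 h rest on 4 Vehicle libraries, intervals near 0.5 CPM rest on few reads, and reads divided between targets make single intervals uncertain.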
